A study of Mus musculus with 2 samples.

Results

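The genes described here encode the B7 family of immunoglobulin-like ligands and a pair of related inhibitory proteins on the surface of antigen-presenting cells. They were the rows of the deposited array table whose platform annotation gives a single gene symbol that is Cd80, Cd86, Cd83, Cd274, Pdcd1lg2, Icosl, Cd276, Vtcn1, Havcr2 or Lgals9. All 10 genes were found, each with 1 row (probe set), among 22180 genes named in this way. The samples were alveolar macrophages, the resident phagocytes of the lung airspace, from adult C57BL6 mice kept specific-pathogen-free. The wild type sample carried floxed alleles of Pikfyve (PIKfyve f_f in the labels), and the sample labelled PIKfyve KO carried the same floxed alleles with LysM-Cre (PIKfyve f_f_lysm_cre), so the Cre alone is what the labels set between them. LysM-Cre is expressed from the lysozyme 2 locus and acts in myeloid cells at large, neutrophils included, not only in alveolar macrophages. The mice were littermates, and live (DAPI-negative) cells carrying Siglec-F and CD11c were sorted from collagenase-digested lung. Each genotype has 1 array, and how many mice were pooled for it, if any, is not in the labels.

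T cells need a costimulatory signal beside antigen, and B7 ligands supply it or withhold it. CD80 and CD86 bind CD28, which activates, and CTLA-4, which restrains. PD-L1 (Cd274) and PD-L2 (Pdcd1lg2) bind the inhibitory receptor PD-1, ICOS ligand (Icosl) binds ICOS, and galectin-9 (Lgals9) is a ligand of the inhibitory receptor TIM-3 (Havcr2). Resting alveolar macrophages are known as weak stimulators of T cells. PIKfyve, a lipid kinase, forms a phosphoinositide of late endosomes and lysosomes, compartments through which several of these surface proteins pass.

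Sequence upstream of the start site is shown for Havcr2, the gene furthest apart between the arrays, for Lgals9, which encodes a ligand of its product, and for Cd274, whose regulators were examined as a list. Each line holds the 250 bases before the start site that the RefSeq promoter table gives for the gene (build GRCm38.p6), written 5′ to 3′ on the strand of the gene. For Cd274 the whole span of the gene in RefSeq begins further upstream, so its line precedes a start site inside that span, and the table does not name the transcript.

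Havcr2, chr11:46454681-46454930, strand +: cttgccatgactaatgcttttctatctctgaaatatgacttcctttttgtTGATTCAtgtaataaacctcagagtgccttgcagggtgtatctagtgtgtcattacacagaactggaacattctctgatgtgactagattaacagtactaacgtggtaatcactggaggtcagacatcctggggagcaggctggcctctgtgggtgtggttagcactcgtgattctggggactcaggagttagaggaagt

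Lgals9, chr11:78984925-78985174, strand -: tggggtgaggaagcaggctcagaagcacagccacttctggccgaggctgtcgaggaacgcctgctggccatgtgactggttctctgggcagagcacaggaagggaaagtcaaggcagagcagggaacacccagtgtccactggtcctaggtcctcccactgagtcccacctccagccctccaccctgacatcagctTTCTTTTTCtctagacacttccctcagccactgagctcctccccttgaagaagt

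Cd274, chr19:29367188-29367437, strand +: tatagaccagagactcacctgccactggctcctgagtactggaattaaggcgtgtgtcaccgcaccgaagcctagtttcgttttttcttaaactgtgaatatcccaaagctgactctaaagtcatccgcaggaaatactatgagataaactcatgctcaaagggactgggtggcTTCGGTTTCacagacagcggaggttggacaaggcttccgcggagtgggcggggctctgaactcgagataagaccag

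Capitals mark matches, on either strand, to the letters searched. These were GAAANNGAA (interferon regulatory factor type), TTCNNNGAA (STAT type), TGANTCA (AP-1 type) and CACGTG (E-box of TFEB and MITF type), and none of the capitals shown overlap another match. The capitals in Havcr2 (TGATTCA) match the AP-1 type letters as searched, which 6.75% of all 32851 RefSeq windows of this length hold. That search left the middle base open and is looser than the usual AP-1 site, which has C or G where Havcr2 has T. Those in Lgals9 and Cd274 are interferon regulatory factor type matches, held by 7.13% of all windows. Of the 8 genes with a window in the table, 2 held the interferon regulatory factor type, 2 the AP-1 type, 0 the STAT type (7.02% of all windows) and 0 the E-box (6.02%). A match is a description of letters and not of binding.

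The B7 family as a whole read alike on both arrays. Of the 10 genes, none reached 1.5-fold in either direction (0 higher and 0 lower in the knockout-labelled array), where 4.45% of the 12516 genes past the filter on low values were higher by that much and 2.66% were lower. All 10 passed that filter, which asks that the mean of both arrays reach 5.13 on the log2 scale. With 10 genes, a share of that size amounts to less than 1 gene in either direction, so the counts lie near the background. By sign alone, 4 read higher and 6 lower in the knockout-labelled array, beside 48.9% and 49.6% of all genes. The median difference (knockout minus wild type, log2) was -0.04 for the 10 genes and 0.00 for all genes past the filter. With 1 array per genotype no test, p-value or error of a difference could be computed. None of the 10 differences reached 3 local spreads, as 2.32% of all genes did; the local spread describes the scatter of the differences of genes at a similar level.

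**Figure D1:**
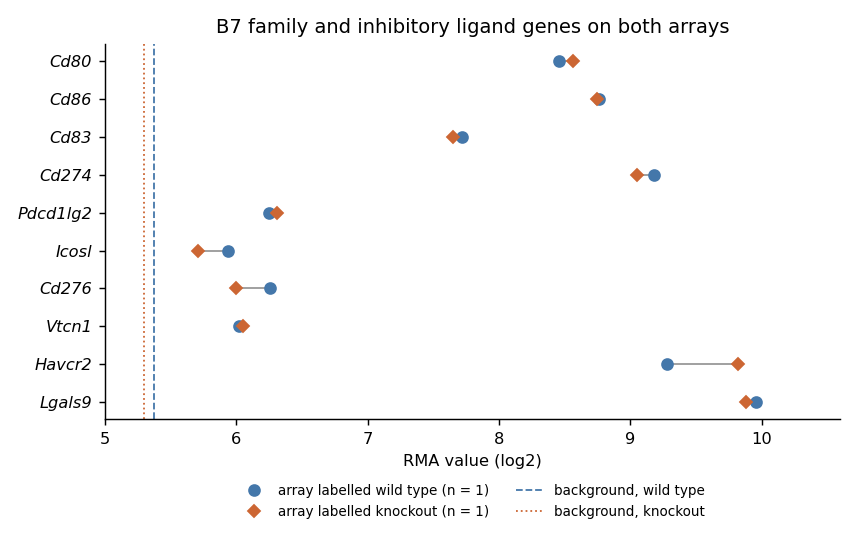
RMA values (log2) of the 10 genes on the wild-type-labelled array (circles) and the knockout-labelled array (diamonds), with 1 array each; dashed and dotted lines mark the background level of each array, 5.37 and 5.30. All 10 genes lie above both lines, and Havcr2 has the longest gap between its points (9.28 and 9.82).

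Background was set at the 95th percentile of 1434 olfactory, vomeronasal and taste receptor genes, which are silent in most tissues. It was 5.37 in the wild-type-labelled array and 5.30 in the knockout-labelled array. Pikfyve itself read 5.68 and 5.95, differing by 0.27 (local spread 0.26.) It was therefore not lower in the knockout-labelled array, and the position of its probes relative to the floxed part is unknown here, so this row does not check the labels. Directions below are between arrays as labelled. In RNA from a sorted population, fewer cells of a type and less RNA per cell cannot be told apart.

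Transcripts of the CD28 and CTLA-4 ligands were present on both arrays at close to the same level. Cd80 (B7-1), which binds both receptors, read 8.46 in the wild-type-labelled array and 8.56 in the knockout-labelled array, differing by 0.10 (local spread 0.33.) Cd86 (B7-2), usually the earlier and more abundant of the pair on antigen-presenting cells, read 8.76 and 8.75, a difference of -0.01. Both genes stood more than 3 log2 units above background on both arrays, by 3.09 and 3.25 for Cd80 and by 3.39 and 3.45 for Cd86. The arrays therefore differed by 1.07-fold for Cd80 and 1.01-fold for Cd86.

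Cd83, an immunoglobulin-like surface protein of mature dendritic cells that keeps CD86 and MHC class II on the surface, read 7.72 and 7.65. Its difference was -0.07, or -0.23 local spreads. The gene lay 2.35 and 2.34 log2 units above background.

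The ligands of PD-1 differed little, and in opposite directions. Cd274 read 9.18 in the wild-type-labelled array and 9.05 in the knockout-labelled array, differing by -0.13 (local spread 0.31.) Pdcd1lg2, whose product has a narrower range of cells than PD-L1, read 6.25 and 6.31, differing by 0.07 (local spread 0.27.) Cd274 lay 3.81 and 3.75 log2 units above background, while Pdcd1lg2 lay only 0.88 and 1.01 above it. Array values compress folds near background, so the small difference of Pdcd1lg2 carries less information than that of Cd274. Among the measured genes with established names, the pair are neighbours on chromosome 19 in the RefSeq table.

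The remaining B7 ligands lay close to background on both arrays. Icosl, the ligand of ICOS, read 5.94 and 5.71, differing by -0.23 (local spread 0.26.) Cd276 (B7-H3), a ligand without a settled T cell receptor, read 6.26 and 6.0, the largest negative difference of the family at -0.26, which equals its local spread of 0.26. Vtcn1 (B7-H4), an inhibitory ligand known mainly from epithelia, read 6.02 and 6.05. The wild type values of these genes exceeded 97.3%, 98.5% and 97.8% of the receptor genes that mark background. They lay between 0.41 and 0.89 log2 units above the background level, so whether the cells carry these transcripts at all is less secure than for Cd80, Cd86 or Cd274.

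Havcr2 was the gene furthest apart. It encodes TIM-3, an inhibitory receptor of exhausted T cells that macrophages and dendritic cells also carry. It read 9.28 in the wild-type-labelled array and 9.82 in the knockout-labelled array, a difference of 0.55 or 1.46-fold. This is 1.83 local spreads and just short of 1.5-fold (0.58 on the log2 scale). With the arrays centred on their medians the difference was 0.61 and passed 1.5-fold. Lgals9, which encodes galectin-9, read 9.96 and 9.88 beside it, a difference of -0.08. The receptor and this ligand were 3.90 and 4.59 log2 units above background in the wild-type-labelled array.

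**Figure D2:**
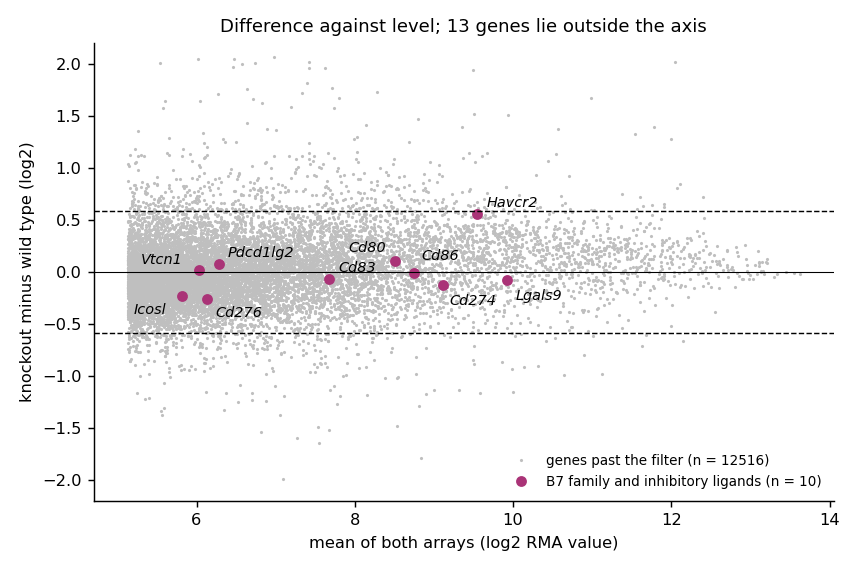
Difference (knockout minus wild type, log2) against the mean of both arrays (log2 RMA value) for the 12516 genes past the filter (grey) and the 10 genes described here (purple); dashed lines mark 1.5-fold. Havcr2, at 0.55, lies just under the upper line, and the other 9 genes lie between -0.26 and 0.10.

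The other ligands of TIM-3 and its gene family gave a mixed picture. Ceacam1, a cell adhesion molecule reported to bind TIM-3, read 5.69 and 6.97, a difference of 1.27 or 2.42-fold, where 0.927% of all genes were at least 2-fold higher. The wild type value of Ceacam1 lay only 0.32 log2 units above background. With an offset added to the linear values its difference was 0.91, which is under 2-fold. The other ligand measured, Hmgb1, a nuclear protein released by damaged cells, read 11.14 and 11.13. Timd4, the phosphatidylserine receptor TIM-4 of resident macrophages, read 7.24 and 7.09, and Timd2 (3.73 and 3.14) and Havcr1 lay below background on both arrays. Of the 5 genes of this list, 3 passed the filter, 1 of them at least 1.5-fold higher and 0 lower, beside 4.45% and 2.66% of all genes.

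The other galectin genes were listed with Lgals3bp, of a galectin-binding protein, and the galectin-related Lgalsl. In this list, 0 of the 7 that passed the filter were 1.5-fold apart, beside 4.45% of all genes higher and 2.66% lower. Lgals4, better known from gut epithelium, read 8.24 and 7.75, a difference of -0.49, and Lgals7 read 5.07, below background, and 5.42. Lgals12, of adipocytes, differed by -0.80 but lay below background on both arrays (5.27 and 4.48), so no fold is given. The median difference of the 7 was 0.10.

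Transcripts of costimulatory and inhibitory receptors of T cells, of which only some bind B7 ligands, were mostly at background. Cd28, Ctla4, Icos, Tigit and Cd96 lay below background on both arrays, and 4 of the 10 genes passed the filter. Pdcd1, which encodes PD-1, read 5.96 and 5.77. Cd226, an activating receptor of T and NK cells, read 4.73, below background, and 5.85, at least 1.40-fold higher. Cd160, a receptor of NK and T cells, read 5.42, barely above background, and 3.95, below it, at least 1.09-fold lower. Both rest on values at the edge of detection.

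Ligands next to the B7 family were also mostly below background, 8 of 11 on both arrays. Vsir (VISTA), an inhibitory B7-like protein of myeloid cells, was well above it and read 8.18 and 7.81, differing by -0.37 (local spread 0.32.) Nectin2, a ligand of CD226 and TIGIT, read 5.67 and 6.27, a difference of 0.59 or 1.51-fold, which was 0.39 with the offset of 32. Vsig4, the complement receptor of the immunoglobulin superfamily with B7-like inhibitory activity, differed by 0.69 but stayed below background (3.98 and 4.67). Of the 3 genes past the filter, 1 was 1.5-fold higher and 0 lower, beside 4.45% and 2.66% of all genes.

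Costimulators outside the B7 family differed by little. Of 7 TNF superfamily and adhesion genes past the filter, 0 were 1.5-fold higher and 1 was 1.5-fold lower, beside 4.45% and 2.66% of all genes. The lower gene was Icam1 (7.35 and 6.76), a call that did not hold with median centring (-0.52), the offset or the other scalings. Icam1 encodes the adhesion ligand of the integrin LFA-1 on T cells. Cd40, the receptor through which T cells license antigen-presenting cells, read 6.35 and 6.45, and Tnfsf9 (4-1BB ligand) read 6.82 and 7.16. Tnfsf18, the ligand of GITR, read 4.76 and 4.10, below background on both arrays, as Tnfsf4, Tnfsf14, Cd70 and Slamf1 also did.

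Inhibitory molecules of myeloid cells outside the B7 family stood further apart than the B7 genes in single cases. Cd200, the ligand of the CD200 receptor on macrophages, read 6.32 and 7.68, a difference of 1.36 or 2.57-fold. Of all genes, 0.927% were at least 2-fold higher. Cd200 was the only one of the 8 that passed the filter to differ by 1.5-fold, beside 4.45% of all genes higher and 2.66% lower. Sirpa, the receptor of CD47, read 8.48 and 7.91, and Tgfb1, the inhibitory cytokine, read 8.77 and 8.27, differences of -0.57 and -0.50. Cd47 read 11.90 and 11.84. The median of the 8 was -0.25.

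**Figure D3:**
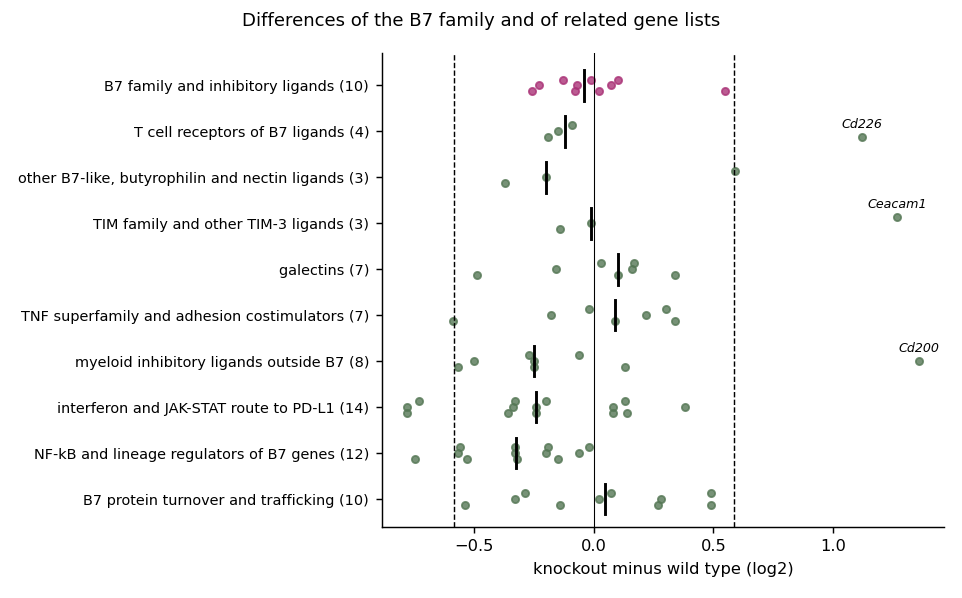
Difference (knockout minus wild type, log2) of each gene past the filter, by list, with the number of genes in brackets; purple points are the 10 genes described here, green points other lists, black bars list medians and dashed lines 1.5-fold. The B7 family centres on -0.04, and the lists of its interferon and NF-kB regulators centre on -0.24 and -0.32.

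The lists of signalling routes that drive B7 transcription had medians below 0, beside -0.04 for the ligands themselves. Both lists also hold inhibitors of these routes, such as Socs1 and Nfkbia. A median below 0 therefore does not give the direction of a route. In the interferon and JAK-STAT list, 9 of the 14 genes past the filter read lower and 5 higher, beside 49.6% and 48.9% of all genes. Of the 14, 3 were at least 1.5-fold lower, beside 2.66% of all genes, and 0 higher. Irf1, the factor through which interferon-gamma raises Cd274, read 7.16 and 6.38, a difference of -0.78. Its target Socs1, a feedback inhibitor of JAK kinases, read 6.43 and 5.65, and Socs3, of the same family, read 7.20 and 6.47. The fold of Socs1 stayed under 1.5 with the offset (-0.53), and the 2 rows of Socs3 disagreed in size, with differences of -0.18 and -1.28.

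None of the receptor and kinase genes of this list was 1.5-fold apart. Ifngr1 and Ifngr2, the subunits of the interferon-gamma receptor, differed by 0.14 and 0.08, and Ifnar1 and Ifnar2, those of the type I interferon receptor, by 0.38 and 0.13. The kinase genes Jak1 and Jak2 differed by -0.34 and -0.20. The transcription factor genes Stat3 and Irf2 differed by -0.36 and -0.33. The median of the 14 genes was -0.24, against 0.00 for all genes past the filter.

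In the list of NF-kB and lineage regulators, 12 of 12 genes past the filter read lower in the knockout-labelled array, where 49.6% of all genes did. Only 1, Myc, was 1.5-fold lower (7.87 and 7.12), and 0 were higher, beside 2.66% and 4.45% of all genes. Nfkbia, the inhibitor of NF-kB that NF-kB itself induces, read 10.98 and 10.42, and Nfkbiz, a nuclear relative of it, read 6.81 and 6.24. Irf8, a factor of macrophage and dendritic cell development, read 9.22 and 8.69, with differences of -0.41 and -0.65 in its 2 rows. The subunit genes Nfkb2, Rela, Rel and Relb differed by -0.33, -0.20, -0.06 and -0.02, and Nfkb1 had no row of 1 symbol. The median was -0.32 and lay between -0.32 and -0.23 over the scaling alternatives, under which 10 to 12 of the genes read lower, since Rel and Relb changed sign with median centring. Of the regulators, Irf1, Socs3, Myc, Nfkbia and Nfkbiz are also known as genes that respond early to many stimuli.

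Genes that govern the turnover of B7 proteins were split, 6 of 10 higher and 4 lower, beside 48.9% and 49.6% of all genes. Of the 10, 0 were 1.5-fold apart, beside 4.45% of all genes higher and 2.66% lower. The difference of largest size was that of Marchf8, a ubiquitin ligase of endosomes that acts on CD86, which read 5.79 and 5.26, the latter below background, at least 1.41-fold lower. Marchf1, the ligase best known for removing CD86 and MHC class II, read 5.30 and 5.37, at the edge of background on both arrays. Cmtm6, which keeps PD-L1 from lysosomal degradation, read 6.67 and 7.17, a difference of 0.49. These are transcript levels, and the surface amount of any B7 protein was not measured.

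Markers of other cells that carry B7 ligands or TIM-3 were examined beside these values. Of 11 dendritic cell markers measured, 10 passed the filter, 7 of them higher and 2 lower, beside 48.9% and 49.6% of all genes. The summed linear signal of the 11 was 1080 in the wild-type-labelled array and 1287 in the knockout-labelled array (a ratio of 1.19, against 1.06 for all genes). Ccr7, the lymph node homing receptor of mature dendritic cells, read 7.31 and 7.97, and Ccl22 7.82 and 8.33, while the lineage factor Zbtb46 lay below background and Flt3 read 5.94 and 5.95. Cd83 and Cd86, which mature dendritic cells carry at high levels, differed by -0.07 and -0.01 beside them.

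T and NK cell markers had a summed signal of 3985 and 4336 (a ratio of 1.09). Of the 8 genes past the filter, 6 read higher and 2 lower, beside 48.9% and 49.6% of all genes. Of the 8, 3 were at least 1.5-fold higher, beside 4.45% of all genes, and 0 lower. Cd2 (11.74 and 11.77) made up 85.8% of the sum in the wild-type-labelled array, and without it, an alternative chosen after seeing the data, the sums were 568 and 844, a ratio of 1.49. Gzma, a granzyme of cytotoxic cells, read 7.09 and 8.23, the T cell receptor complex gene Cd3d 6.43 and 7.21, and Cd8b1 5.59 and 6.20. The difference of Cd8b1 was 0.61, and 0.39 with the offset, which is under 1.5-fold. The 2 lower genes were Cd3e (5.96 and 5.82), of the same complex as Cd3d, and Cd4 (5.37 and 5.31), at the background level. Cd8a, Ncr1, Klrb1c and Il2rb lay below background on both arrays. The part of these cells in the difference of Havcr2 was not tested.

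Neutrophil markers were higher in 9 of 10 genes, beside 48.9% of all genes, with a summed signal of 7028 and 9679 (a ratio of 1.38). All 10 lay above background. Of the 10, 5 were at least 1.5-fold higher and 1 lower, beside 4.45% and 2.66% of all genes. The lower gene was Csf3r (6.32 and 5.68). S100a8 and S100a9 read 11.44 and 12.08, and 11.63 and 11.83, and the antimicrobial peptide gene Camp read 7.47 and 8.56. Monocyte markers were lower in 6 of 8 genes past the filter, beside 49.6% of all genes, with a ratio of 0.642 (2041 and 1311). Of the 8, 5 were at least 1.5-fold lower and 0 higher, beside 2.66% and 4.45% of all genes. The matrix gene Fn1 read 7.58 and 6.04, Ms4a4c 7.0 and 5.68, Plac8 8.89 and 7.87 and Nr4a1 8.84 and 8.10. The 2 higher genes were Treml4 (8.08 and 8.17) and Chil1 (5.56 and 5.94), and Ccr2 read 6.93 and 6.8. Of all genes, 0.336% were at least 2-fold lower, as Fn1, Ms4a4c and Plac8 were. With the offset Ms4a4c (-0.95) and Plac8 (-0.93) were under 2-fold, as Plac8 also was with median centring (-0.96). The part of neutrophils and monocytes in the B7 values was not tested.

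B cell markers, which go with Icosl and Cd80, gave 566 and 509, a ratio of 0.90. Cd79a and Cd79b read 6.45 and 6.30, and 7.60 and 7.63, and Cr2, Fcer2a and Bank1 lay below background on both arrays. Epithelial markers, which go with Vtcn1 and Cd276, gave 9039 and 9502, a ratio of 1.05, of which Scgb1a1 (12.26 and 12.39) made up 54.1% in the wild-type-labelled array. Beneath this sum single genes lay far apart in both directions. The adhesion molecule Epcam read 8.09 and 6.09 (3.98-fold lower), and the surfactant gene Sftpc 8.36 and 9.14 (1.72-fold higher). Krt19 read 11.45 and 11.44, while Sftpb and Cldn18 lay below background on both arrays.

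Alveolar macrophage markers were above background on both arrays in 11 of 11 genes, with a ratio of 1.08, but they differed in both directions. Of the 11, 3 were at least 1.5-fold lower in the knockout-labelled array and 1 was at least 1.5-fold higher, beside 2.66% and 4.45% of all genes. Chil3 read 13.14 and 13.27 and Plet1 13.06 and 13.15. Siglecf, whose product was a marker of the sort, read 9.27 and 8.54 (1.66-fold lower), and Itgax, which encodes the other sort marker CD11c, read 10.03 and 10.39. Krt79 differed by -0.98, Cidec by -0.59 and Fabp4 by 0.62. Cidec was under 1.5-fold with median centring (-0.52) and the offset (-0.57), and Fabp4 with quantile (0.55) and loess (0.56) scaling. The part of these differences in the B7 values was not tested.

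**Figure D4:**
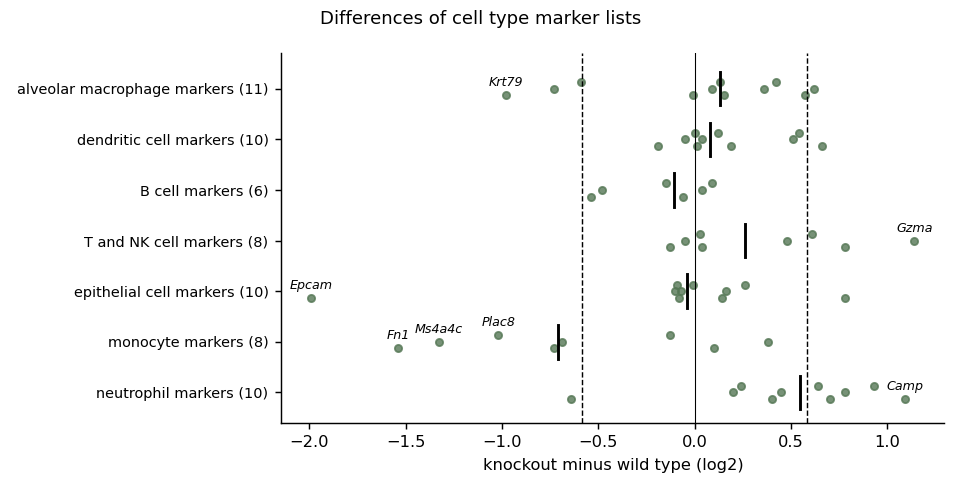
Difference (knockout minus wild type, log2) of each marker gene past the filter, by cell type, with the number of genes in brackets, black bars for medians and dashed lines at 1.5-fold. Neutrophil markers centre on 0.54 and monocyte markers on -0.71, and dendritic cell markers on 0.08.

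The top place of Havcr2 and most signs of the B7 genes depended little on how the arrays were scaled, but the order of the smaller differences changed. Cd80 stood above Pdcd1lg2 as deposited (0.10 and 0.07) and below it with quantile normalisation (0.05 and 0.10). Havcr2 stood highest under each of the 6 settings, between 0.47 and 0.61. Cd80, Pdcd1lg2 and Vtcn1 stayed higher, and Cd274, Icosl, Cd276 and Lgals9 lower. Cd86, between -0.07 and 0.06, had no stable sign, and Cd83 ran from -0.09 to 0.00.

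**Figure D5:**
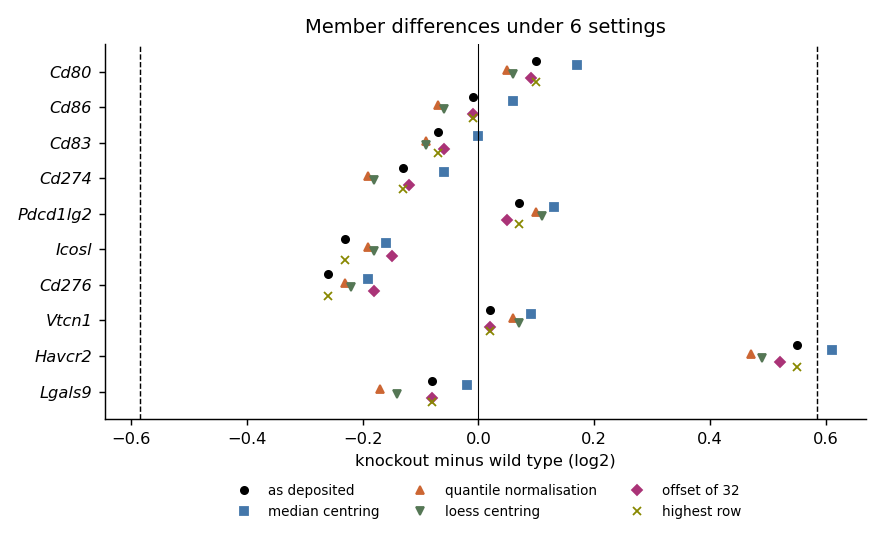
Difference (knockout minus wild type, log2) of the 10 genes on the values as deposited and under 5 alternative settings, with dashed lines at 1.5-fold. With median centring Havcr2, at 0.61, crosses the upper line, and no other point reaches either line.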

How the data were processed

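Sorted alveolar macrophages of 2 genotypes were measured on Affymetrix arrays, 1 array each, from cDNA amplified from 10 ng of RNA, per the labels' protocols. RMA was used by the authors, per the submitters' processing notes, and the deposited values are log2, in 41345 rows. The base of the logarithm follows from the method and the range; no version of RMA is given in the sources used here. The deposited arrays do not share one exact distribution (row medians 5.17 and 5.10), so scaling was varied. Of the rows, 23521 have 1 gene symbol in the platform annotation. Rows of a gene were averaged. All 10 members' identifiers were found in the RefSeq table (GRCm38.p6).

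Genes entered counts when their mean over both arrays was at least 5.13, which is the median over all rows. The local spread (from 0.20 to 0.33) scales by 1.4826 the median absolute deviation of the difference, taken in 20 level bins. A fold for a gene below background on 1 array is measured from that level and written "at least"; counts use values as read. Precision is limited by the number of arrays. Python 3.11.15, pandas 2.3.3 and statsmodels 0.14.6 were used, and the procedure was run on simulated data with known answers. The simulated scatter was narrower than that of these arrays, so this run checks the code and not the error of the counts.

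The members, 9 pathway lists and 7 marker lists were chosen with earlier results of these data known; Batf3 stands in both a pathway and a marker list. Named genes were every member; of each pathway list, the genes 1.5-fold apart, otherwise the 2 above background with the largest difference; of each marker list, the 2 with the highest mean level and any 2-fold apart. Other genes were named after their values were seen. The motif letters were settled after the windows had been seen. Of the listed genes, those without a row of 1 symbol were not analysed here. Alternatives were 3 other filters, median, quantile and loess (span 0.3) scaling, 32 added to linear values (the offset), the highest row of a gene, folds of 2 and 3, 3 local spreads, and the mean; marker sums without their gene of highest signal were added after seeing the data.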

Additional observations from a re-analysis of the deposited data

How the results depend on the processing

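The count of B7 family genes at least 1.5-fold apart was 0 on the values as deposited and 1 with median centring, where Havcr2 reached 0.61; it was 0 under the other filters, quantile and loess scaling, the offset, the highest row, folds of 2 and 3, and 3 local spreads. The median of the genes ran from -0.08 with quantile normalisation to 0.03 with median centring, and their mean was 0.00. No gene's difference moved by as much as its local spread. Over all genes, 890 were 1.5-fold apart, 62.6% of them higher in the knockout-labelled array. That share was 77.0% with median centring. The count was 1802 with no filter, 546 with the filter at the 75th percentile of rows, which kept 6 of the 10 B7 genes, and 414 with the offset. No paired analysis was possible because each genotype has 1 array, and no array could be left out. Signal over background limits Icosl, Cd276, Vtcn1 and Pdcd1lg2 most.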

Other observations

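The genes beside the B7 family on the chromosomes were read from the order of genes in the RefSeq table, taking the 3 nearest measured genes on each side and leaving out predicted genes and small RNAs. Of 54 such neighbours 39 passed the filter, 17 of them higher and 20 lower in the knockout-labelled array, with a median difference of -0.01. As read, 3 of the 39 were at least 1.5-fold higher and 1 lower, beside 4.45% and 2.66% of all genes. Slc15a2, a transporter of small peptides near Cd86, read 6.19 in the wild-type-labelled array and 7.20 in the knockout-labelled array, while Cd86 differed by -0.01. Insl6, an insulin-like peptide gene on the Cd274 side of the PD-1 ligand pair, read 5.87 and 6.54, and Plgrkt, the plasminogen receptor gene next to Cd274, read 9.82 and 9.91. Lyrm9, near Lgals9, read 5.92 and 6.67. Tbc1d21, near Cd276, the gene that read lower, had 5.69 and 5.07, the latter below background, so it was at least 1.31-fold lower when measured from that level.

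Nos2, the inducible nitric oxide synthase gene of inflammatory macrophages, neighbours Lgals9 and read 5.29 on both arrays, below background in both. Med7, a Mediator subunit gene next to Havcr2, read 8.07 and 7.93, so the higher value of Havcr2 was not shared by it. Cd101, an inhibitory immunoglobulin superfamily receptor near Vtcn1, read 6.08 and 5.85.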
